A study of Mus musculus with 6 samples.

Results

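The 6 Dlx genes measured here were Dlx1 to Dlx6, which lie in the mouse genome as the pairs Dlx1/Dlx2, Dlx3/Dlx4 and Dlx5/Dlx6. They were taken by name, and every H3K27me3 peak between 5 kb before and 5 kb after each pair was read. They are 6 of 21911 protein-coding genes, of which 4735 had a peak within 5 kb in at least 1 library. H3K27me3, a repressive methylation of histone H3, was profiled by CUT&Tag in ovarian granulosa cells (GCs), the somatic cells that surround the oocyte. The cells came from 3-week-old ICR females primed with pregnant mare's serum gonadotropin (PMSG), which starts follicle growth. The mice received 1 intraperitoneal injection of cyclophosphamide (CTX), an alkylating chemotherapeutic, or an equal volume of phosphate-buffered saline (PBS) as control. GCs were taken 6 h later in both groups, with 3 libraries per group, and each library pooled the GCs of 3 mice. A change in the share of cells that carry the mark and a change in the mark per cell cannot be told apart in such pools.

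Dlx genes encode homeodomain transcription factors related to Distal-less of the fly. In each pair the genes face each other, so that their 3′ ends are close and their promoters lie at the outer ends. The shared stretch between the genes holds enhancers. They are known for patterning the jaw, the limb, the skeleton, the placenta and the GABAergic neurons of the forebrain, and reduced dosage of Dlx5 and Dlx6 in mice has been tied to early loss of ovarian follicles. H3K27me3 is written by Polycomb repressive complex 2 (PRC2), typically over CpG islands of developmental regulators that a tissue keeps silent.

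The windows were chr2:71523113-71551754 for Dlx1/Dlx2 (28.6 kb), chr11:95115119-95151263 for Dlx3/Dlx4 (36.1 kb) and chr6:6858334-6887085 for Dlx5/Dlx6 (28.8 kb), all in mm10. Peaks of the 6 libraries that overlapped were joined into 24 regions, 9 at Dlx1/Dlx2, 10 at Dlx3/Dlx4 and 5 at Dlx5/Dlx6. Each pair had 1 region that all 6 libraries shared and 1 that 5 libraries shared. The shared regions lay at the promoter end of Dlx1, over the first exon of Dlx3 and over the start of Dlx5. The regions of 5 libraries lay between genes or inside Dlx4.

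The sequences below show why CpG density is followed in these data. They are the 300 bases around the median summit of 3 of those 6 regions, read on the plus strand, with each CpG in capitals. The first exon of Dlx3 with the start of the intron after it (chr11:95120390-95120689) held 18 CpG sites and was part of a region of all 6 libraries. The stretch inside Dlx4 (chr11:95141337-95141636) held 3 CpG sites, and its region was called in 5 libraries. The stretch between Dlx6 and Dlx5 (chr6:6874389-6874688) held 13 CpG sites and was in a region of 5 libraries.
Dlx3 first exon: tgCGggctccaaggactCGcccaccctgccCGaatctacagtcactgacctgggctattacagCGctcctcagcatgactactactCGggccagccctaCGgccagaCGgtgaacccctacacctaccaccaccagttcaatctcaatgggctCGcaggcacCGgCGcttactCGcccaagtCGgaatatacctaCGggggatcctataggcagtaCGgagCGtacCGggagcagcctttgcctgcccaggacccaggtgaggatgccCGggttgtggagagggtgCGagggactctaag
Dlx4 gene body: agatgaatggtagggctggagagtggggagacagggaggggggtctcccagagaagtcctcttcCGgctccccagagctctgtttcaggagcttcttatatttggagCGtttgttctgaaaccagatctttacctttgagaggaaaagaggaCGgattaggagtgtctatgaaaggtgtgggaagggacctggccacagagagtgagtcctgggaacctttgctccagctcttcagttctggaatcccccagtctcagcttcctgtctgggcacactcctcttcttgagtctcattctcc
between Dlx6 and Dlx5: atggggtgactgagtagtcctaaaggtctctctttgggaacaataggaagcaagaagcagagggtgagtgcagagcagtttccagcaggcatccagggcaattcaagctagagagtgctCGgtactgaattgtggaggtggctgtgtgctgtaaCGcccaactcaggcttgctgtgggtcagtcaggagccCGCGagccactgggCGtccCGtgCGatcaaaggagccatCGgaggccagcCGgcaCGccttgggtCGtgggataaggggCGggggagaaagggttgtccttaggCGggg
CpG-rich and CpG-poor stretches thus both stood among the regions that most libraries shared. The regions of all 6 libraries at Dlx1 and Dlx5 overlapped annotated untranslated sequence, and their letters are not printed.

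**Figure D1:**
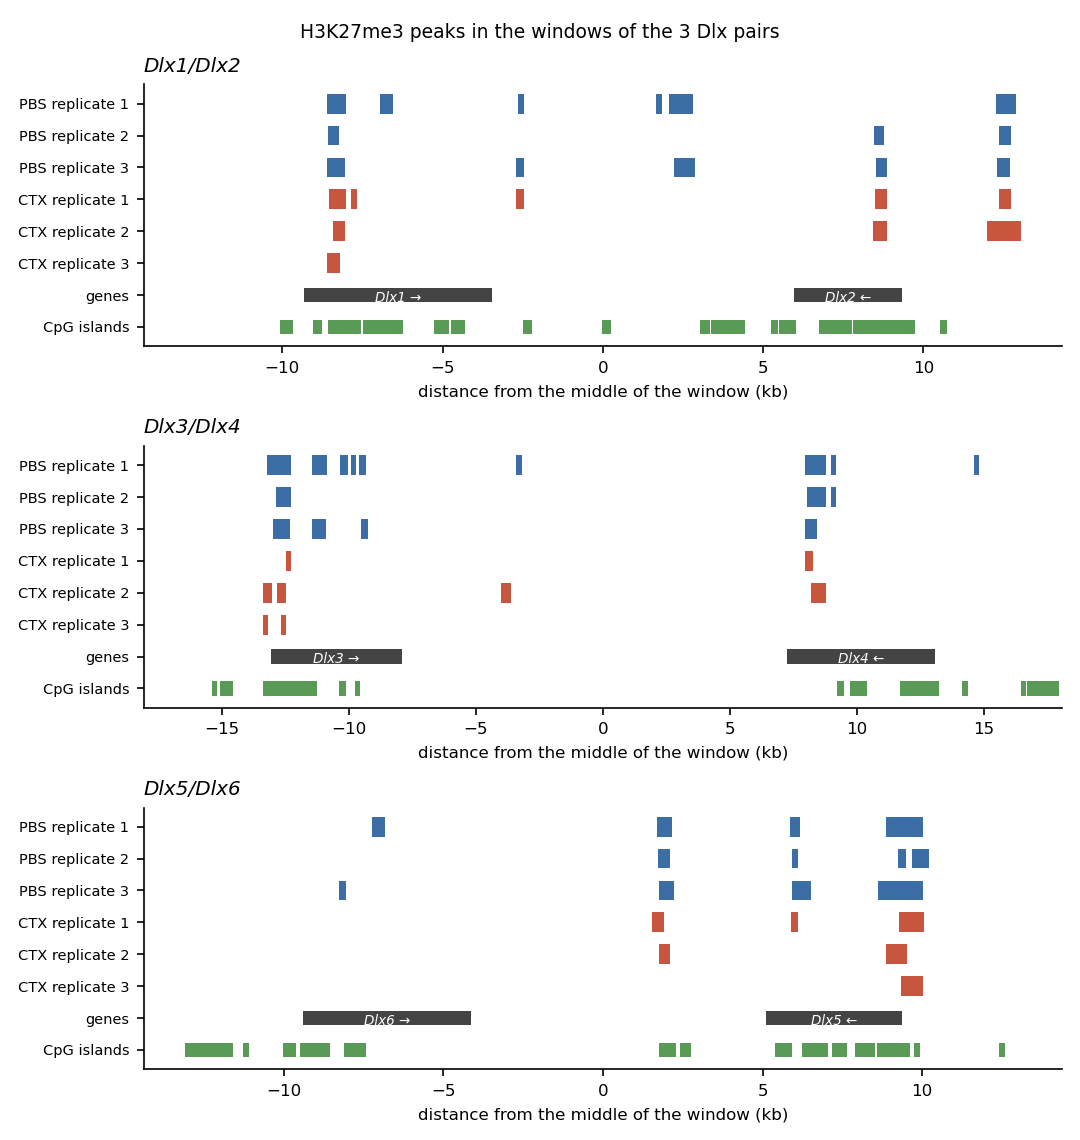
H3K27me3 peaks (bars, PBS blue, CTX red) of the 6 libraries across the 3 windows, by distance in kb from the middle of each window, with the Dlx genes (arrows give the direction of transcription) and the CpG islands. Bars of all 6 libraries line up at the starts of Dlx1, Dlx3 and Dlx5, and the bars of CTX replicate 3 are the fewest.

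The lists held between 3316 and 9083 summits, and the depth recovered from them was 1118 to 1957 reads per Mb of effective genome. CTX replicate 3 was lowest and PBS replicate 1 highest in both. Covered bases and q-values are not scaled to depth, and the part of depth in them was not tested. Within each group the values are given for replicates 1, 2 and 3 in that order. Group means are given with the SD over 3 libraries, and p-values come from two-sided exact permutation tests, which cannot go below 0.1 for 3 against 3 libraries. No comparison of PBS with CTX could therefore pass 0.05, and 18 such tests were made over the 3 pairs. Among all 12430 regions of the genome, 1.64% were in every PBS and no CTX library, and 0.0885% in every CTX and no PBS library. Of the 24 Dlx regions, 0 were of the first kind and 0 of the second. Looser presence gave 12 of 24 Dlx regions with peaks from PBS libraries alone and 2 with peaks from CTX libraries alone, beside 39.7% and 31.0% of all regions. A single library called 41.7% of the Dlx regions and 62.8% of all regions.

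Dlx1/Dlx2 carried peaks in every library. Dlx1 and Dlx2 act together in the differentiation of forebrain interneurons and of the upper jaw. Peaks covered 2785, 1056 and 2235 bp of the window in PBS and 1736, 1860 and 382 bp in CTX. The groups overlapped, since PBS replicate 2 was below 2 of the CTX libraries. The means were 2025 ± 883 bp in PBS and 1326 ± 820 bp in CTX (exact permutation p = 0.4, n = 3 per group). The difference of -699 bp ranged from -1184 bp without PBS replicate 2 to -227 bp without CTX replicate 3, and was -320 bp without PBS replicate 1. The window held 12, 3 and 6 summits in PBS and 6, 4 and 2 in CTX (exact permutation p = 0.5).

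The strongest summit of Dlx1/Dlx2 had a −log10 q-value of 8.20, 4.32 and 9.40 in PBS and 4.08, 5.65 and 3.43 in CTX. These were ranks 1770, 2355 and 1085 of the PBS lists and 2153, 1809 and 1497 of the CTX lists. The strongest summit of this pair was thus never among the first 1000 of a list.

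Dlx3/Dlx4 had the widest spread in covered bases. Dlx3 acts in the placenta, the skin, hair and teeth, and Dlx4 is expressed in the placenta. Covered bases were 3717, 1529 and 1932 bp in PBS and 507, 1731 and 410 bp in CTX. CTX replicate 2 lay between PBS replicates 2 and 3, so the groups overlapped. The means were 2393 ± 1164 bp in PBS and 883 ± 736 bp in CTX (exact permutation p = 0.2, n = 3 per group). Summits numbered 14, 6 and 6 in PBS and 2, 5 and 2 in CTX, without overlap (exact permutation p = 0.1, the smallest possible). Without PBS replicate 1 the difference in covered bases was -848 bp instead of -1510 bp.

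The strongest summit separated the groups at Dlx3/Dlx4. Its −log10 q-value was 11.1, 10.2 and 12.5 in PBS and 4.98, 4.40 and 5.06 in CTX. The means were 11.3 ± 1.17 and 4.81 ± 0.358 (exact permutation p = 0.1, n = 3 per group). The groups did not overlap. Ranks were 948, 460 and 553 in PBS and 1597, 2667 and 829 in CTX. The ranks overlapped, and they depend on the length of each list. As a percentile of its list, where higher is stronger, the rank averaged 91.4 ± 1.66 in PBS and 67.3 ± 8.31 in CTX. The percentiles of the groups did not overlap (exact permutation p = 0.1, n = 3 per group). With equal peak numbers the exact permutation p was 0.2. At Dlx1/Dlx2 and Dlx5/Dlx6 the percentiles of the groups overlapped (exact permutation p = 0.2 and 0.4). The summit was at the start of Dlx3 in PBS replicate 1 and the 3 CTX libraries. It was in an intron of Dlx3 in PBS replicate 3 and inside Dlx4 in PBS replicate 2, so the sites differed between libraries. No CTX library called the regions of the summits of PBS replicates 2 and 3.

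Dlx5/Dlx6 held the best-ranked Dlx summit in 4 of 6 libraries. Dlx5 and Dlx6 pattern the lower jaw and the limb, and Dlx5 promotes osteoblast differentiation. Peaks covered 2306, 1379 and 2638 bp in PBS and 1377, 1010 and 700 bp in CTX. The groups did not overlap, but PBS replicate 2 and CTX replicate 1 were only 2 bp apart. The means were 2108 ± 653 bp and 1029 ± 339 bp (exact permutation p = 0.1, n = 3 per group). With lists shortened to equal peak numbers the difference was -278 bp instead of -1079 bp, and the exact permutation p was 0.4. Summits numbered 8, 4 and 11 in PBS and 5, 3 and 2 in CTX (exact permutation p = 0.2).

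The strongest Dlx5/Dlx6 summit had a −log10 q-value of 17.6, 11.6 and 10.8 in PBS and 6.07, 16.9 and 2.02 in CTX. CTX replicate 2 was the second highest of the 6 libraries and CTX replicate 3 the lowest. Ranks were 293, 321 and 772 in PBS and 1129, 201 and 2527 in CTX. The best Dlx rank of all, 201, was therefore in a CTX library, and the difference of -5.02 in −log10 q ranged from -9.29 without CTX replicate 2 to -1.87 without CTX replicate 3. In PBS replicates 1 and 2 and CTX replicate 2 this summit was at the start of Dlx5, within 10 bp of the same base.

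The q-value depends on depth, so the read pileup and the local background behind each summit were recovered from the fold enrichment and the p-value. The highest pileup in the window was scaled to 1000 reads per Mb. The local background is the read density in the 10 kb around a summit over the floor of the whole genome, so it measures the broad domain and not the summit. At Dlx1/Dlx2 the highest local background was 75.5, 61.6 and 67.5 times the floor in PBS and 49.0, 50.6 and 46.4 times in CTX. At Dlx3/Dlx4 it was 92.9, 93.0 and 88.9 times in PBS and 66.8, 71.6 and 49.6 times in CTX. At Dlx5/Dlx6 it was 94.1, 89.0 and 99.96 times in PBS and 67.0, 61.1 and 53.3 times in CTX. Every PBS library was above every CTX library at all 3 pairs. The log2 ratio of CTX to PBS was -0.49 at Dlx1/Dlx2, -0.55 at Dlx3/Dlx4 and -0.64 at Dlx5/Dlx6 (exact permutation p = 0.1 for each, n = 3 per group). These are the highest values among called summits, and the site differed between libraries. The highest PBS values at Dlx5/Dlx6 came from an intron of Dlx5 that was not called in CTX replicates 2 and 3. At Dlx3/Dlx4 those of PBS came from inside Dlx4. In PBS replicates 1 and 2 the site was a region (chr11:95142159-95142369) that no CTX library called. In PBS replicate 3 it was the neighbouring region (chr11:95141141-95141988), also called in CTX replicates 1 and 2 but not in CTX replicate 3. The reads behind the values numbered 519 to 1841 in 10 kb.

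The highest scaled pileup also separated the groups. It was 33.2, 29.8 and 40.1 reads in PBS and 26.5, 27 and 27.7 reads in CTX at Dlx1/Dlx2. At Dlx3/Dlx4 it was 45.5, 53.8 and 44.5 reads in PBS and 33.5, 31.3 and 32.2 reads in CTX. At Dlx5/Dlx6 it was 47.5, 47.3 and 45.2 reads in PBS and 37.0, 44.2 and 26.8 reads in CTX. The groups did not overlap at any pair, with the narrowest gap at Dlx5/Dlx6, where CTX replicate 2 came close to PBS replicate 3. These values too were taken at whichever called summit was highest. Their log2 ratios were -0.34, -0.57 and -0.37 (exact permutation p = 0.1 for each, n = 3 per group). At Dlx3/Dlx4 all PBS values came from regions that no CTX library called. In the Dlx3 region that all 6 libraries shared, the log2 ratio was -0.31. Leaving out 1 library brought the difference from -7.30 to -4.43 reads at Dlx1/Dlx2 (PBS replicate 3) and from -10.6 to -6.06 reads at Dlx5/Dlx6 (CTX replicate 3). In raw reads, before scaling, the exact permutation p was 0.2 at Dlx1/Dlx2, 0.1 at Dlx3/Dlx4 and 0.3 at Dlx5/Dlx6.

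**Figure D2:**
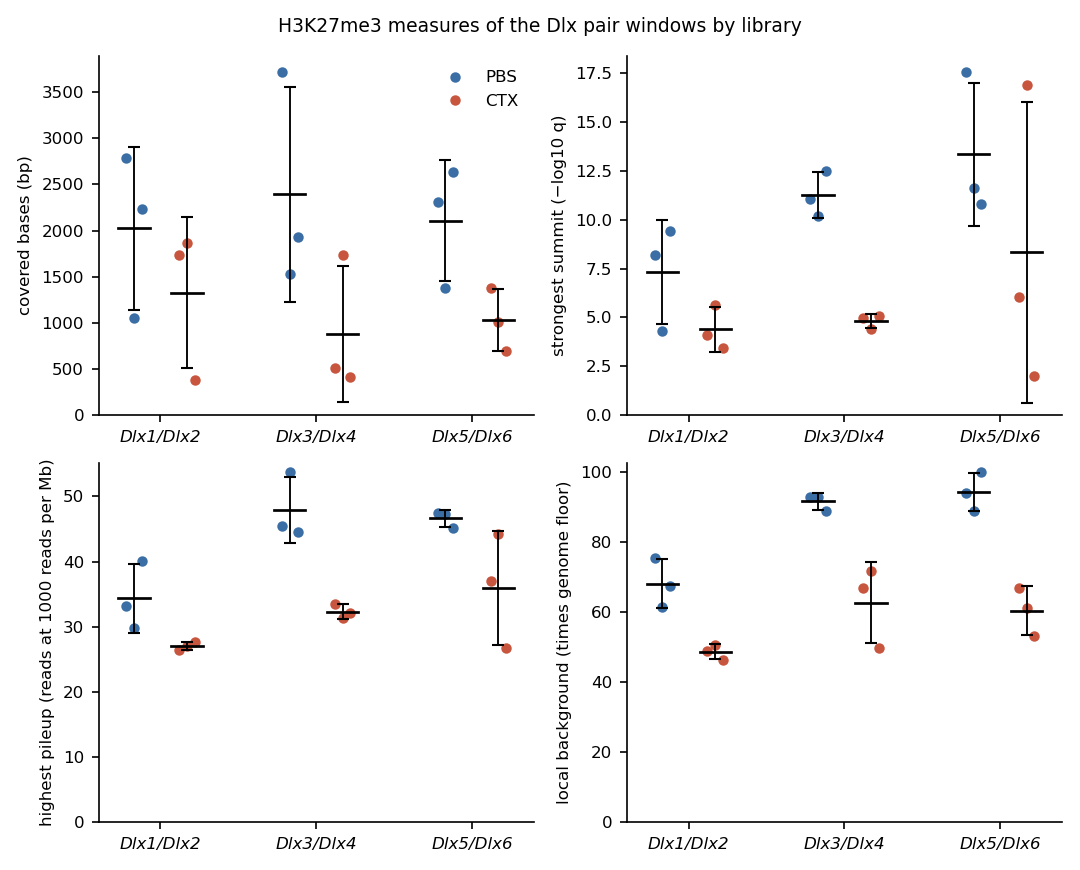
Covered bases (bp), strongest summit (−log10 q), highest pileup (reads at 1000 reads per Mb) and local background (times the genome floor) of the 3 Dlx pairs, with 1 point per library, the mean as a line and the SD as an error bar (n = 3 per group). The PBS and CTX points are apart at every pair for pileup and local background, and they overlap for covered bases at Dlx1/Dlx2 and Dlx3/Dlx4.

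To compare the same site across libraries, the 3 Dlx regions of all 6 libraries were set beside every other such region. Of 1124 regions with a recovered value, 74.8% had a higher local background in every PBS than in every CTX library, and 6.23% the opposite. The Dlx count was 3 of 3 higher in PBS, which is the pattern of most marked regions. The Dlx1 region (chr2:71528826-71529428) averaged 64.0 ± 3.64 times the floor in PBS and 47.1 ± 0.754 in CTX. The Dlx3 region (chr11:95119814-95120911) averaged 61.1 ± 2.39 times in PBS and 47.4 ± 2.39 in CTX. The Dlx5 region (chr6:6881338-6882907) averaged 74.1 ± 5.30 times in PBS and 54.1 ± 2.33 in CTX. These levels stood at percentiles 87.7, 87.2 and 92.1 of all 1124 regions. By local background the starts of Dlx1, Dlx3 and Dlx5 were thus among the more strongly marked domains. By scaled pileup the same regions stood lower, at percentiles 70.0, 76.2 and 89.8.

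The log2 ratios of local background were -0.44 at Dlx1, -0.37 at Dlx3 and -0.45 at Dlx5. Over all 1124 regions the median was -0.33, with quartiles of -0.41 and -0.22. Dlx3 lay between the quartiles, and Dlx1 and Dlx5 lay below the lower one, at percentiles 17.2 and 14.5. Among the 113 regions of the top decile by local background, the median was -0.40 with quartiles of -0.45 and -0.36. The cut of this decile was 58.6 times the floor, and of the 3 Dlx regions only Dlx5 was in it, with its ratio at the lower quartile. The Dlx1 and Dlx3 regions averaged 55.6 and 54.2 times over the 6 libraries, below the cut. Their ratios lay between the quartiles of the decile. No test of the Dlx regions against the rest was made.

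Scaled pileup at the same 3 regions gave log2 ratios of -0.37 at Dlx1, -0.31 at Dlx3 and -0.47 at Dlx5, with a median of -0.26 over the 1124 regions. Every PBS library was above every CTX library in 3 of 3 Dlx regions, beside 34.3% of all regions, and 5.6% of regions were the other way round. At Dlx5 the pileup was 47.5, 47.3 and 45.2 reads in PBS and 30, 44.2 and 26.8 reads in CTX. CTX replicate 2 was thus nearer to PBS than to the other CTX libraries at the start of Dlx5.

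**Figure D3:**
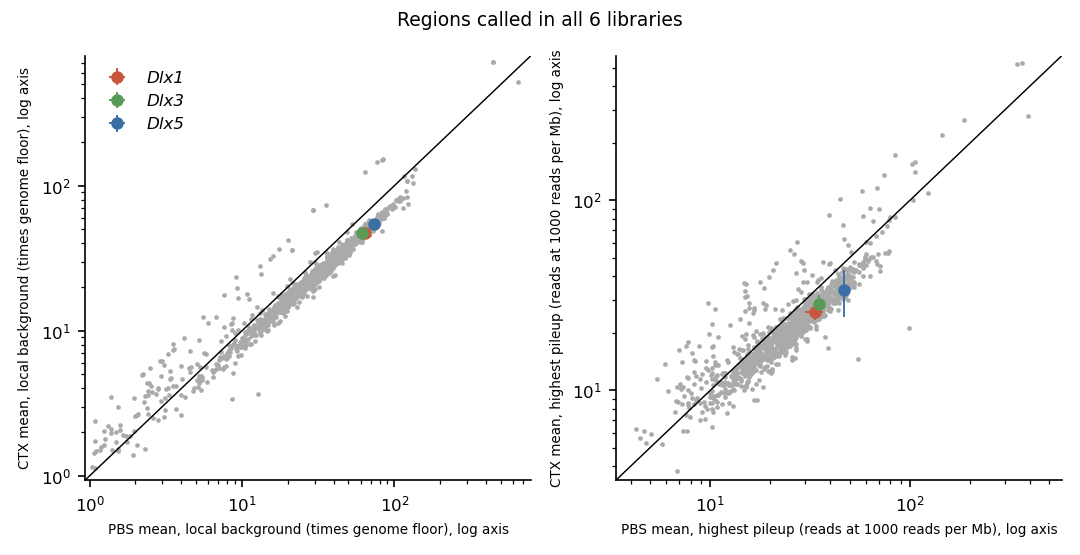
CTX mean against PBS mean of local background (times the genome floor) and of highest pileup (reads at 1000 reads per Mb) for the 1124 regions called in all 6 libraries, on log axes, with the line of equality. The Dlx1, Dlx3 and Dlx5 regions (coloured, bars are SD, n = 3 per group) lie below the line inside the cloud of all regions.

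The order of the pairs depended on the site compared. By the window maximum of local background, Dlx1/Dlx2 was lower than Dlx3/Dlx4 in 6 of 6 libraries and lower than Dlx5/Dlx6 in 6 of 6 (exact sign permutation p = 0.03125 for each, the smallest that 6 libraries allow). The maximum of Dlx3/Dlx4 lay inside Dlx4 in 5 of the 6 libraries. With equal peak numbers the exact p against Dlx3/Dlx4 was 0.0625, for local background and for the highest pileup. At the 3 regions that all 6 libraries shared, the Dlx1 region was higher than the Dlx3 region in 5 of 6 libraries, at 55.6 ± 9.51 against 54.2 ± 7.82 times the floor (exact sign permutation p = 0.25, n = 6). The Dlx5 region was higher than both in 6 of 6 libraries, at 64.1 ± 11.5 times (exact sign permutation p = 0.03125 for each, n = 6). In scaled pileup the Dlx5 region was higher in 5 of 6 libraries than the Dlx1 region (exact sign permutation p = 0.0625, n = 6) and than the Dlx3 region (exact sign permutation p = 0.09375, n = 6). The covered share of the window, 5.85 ± 2.98%, 4.53 ± 3.32% and 5.45 ± 2.62% for the 3 pairs, did not separate them (exact sign permutation p from 0.219 to 0.594, n = 6). These p-values were not adjusted.

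At Dlx3/Dlx4 and Dlx5/Dlx6 called peaks covered the promoters of the partners unequally. A call is relative to the local background, so a promoter without a call is not thereby free of the mark. A promoter is here the sequence within 2000 bp of any annotated transcription start site (TSS). The promoter of Dlx1 had a peak in 6 libraries and that of Dlx2 in 4, that of Dlx3 in 6 and that of Dlx4 in 1, that of Dlx5 in 6 and that of Dlx6 in 2. All coding genes together had a promoter peak in 9.07%, 7.10% and 8.70% of cases in PBS and 6.13%, 7.29% and 4.56% in CTX. By library, 5, 4 and 5 of the 6 Dlx genes had one in PBS and 4, 4 and 3 in CTX.

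Dlx5 had the most covered promoter, with 1166, 774 and 1401 bp in PBS and 754, 649 and 700 bp in CTX. Its partner Dlx6 had 311, 0 and 200 bp in PBS and 0 bp in all 3 CTX libraries. In covered promoter bases Dlx5 exceeded Dlx6 in 6 of 6 libraries, by 822 bp on average (exact sign permutation p = 0.03125, n = 6). At the Dlx6 calls of PBS replicates 1 and 3 local background was 58.7 and 60.1 times the floor. The Dlx5 region had 72.9 and 79.9 times there. Scaled pileup was 23.0 and 31.4 reads at Dlx6, beside 47.5 and 45.2 reads in the Dlx5 region. The CpG density around the main TSS was 33.7 sites per kb at Dlx5 and 42.5 at Dlx6. The noncoding gene Dlx6os1 (chr6:6820189-6871592) runs antisense through Dlx6 and on beyond the window. It had peaks in its body in 5 libraries. In PBS replicate 2 and CTX replicates 1 and 2 these lay outside the window and not at Dlx6. The short Dlx6os2 had peaks in its body in 1 library.

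The promoter of Dlx3 was covered over 1288, 582 and 1074 bp in PBS and 200, 742 and 410 bp in CTX. At Dlx4 a single library, PBS replicate 1, had 200 bp, and the others had none. In covered promoter bases Dlx3 exceeded Dlx4 in 6 of 6 libraries, by 683 bp on average (exact sign permutation p = 0.03125, n = 6). At that Dlx4 call local background was 79.8 times the floor and scaled pileup 35.8 reads. The Dlx3 region had 59.9 times and 36.3 reads in the same library, so the mark was not lower at that site of Dlx4. The CpG density was 48.2 sites per kb around the TSS of Dlx3 and 32.0 around that of Dlx4, so its order was that of the covered bases here and the opposite at Dlx5 and Dlx6. Dlx4 was not free of the mark, since its gene body was covered over 1034, 947 and 449 bp in PBS and 307, 584 and 0 bp in CTX. The domain inside Dlx4 (chr11:95141141-95141988) had only 11.8 CpG sites per kb and no CpG island, and its local background of 88.9 to 90.9 times the floor in PBS was above that of the Dlx3 region. The noncoding gene Dlx4os, which overlaps the start of Dlx4, had a peak in 1 library.

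At Dlx1 and Dlx2 the difference did not pass the test. The promoter of Dlx1 was covered over 1002, 354 and 559 bp in PBS and 732, 385 and 382 bp in CTX. That of Dlx2 was covered over 0, 318 and 349 bp in PBS and 362, 423 and 0 bp in CTX. Dlx2 was thus the 1 Dlx gene whose promoter mean was higher in CTX, at 262 ± 229 bp against 222 ± 193 bp in PBS, a difference far below the SD. Dlx1 exceeded Dlx2 in 5 of 6 libraries (exact sign permutation p = 0.09375, n = 6), and its promoter is longer, at 6668 bp against 4805 bp, since it has more annotated starts. The antisense gene Dlx1as overlaps Dlx1 and had peaks in its body in 6 libraries, and the mark of both genes cannot be told apart.

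**Figure D4:**
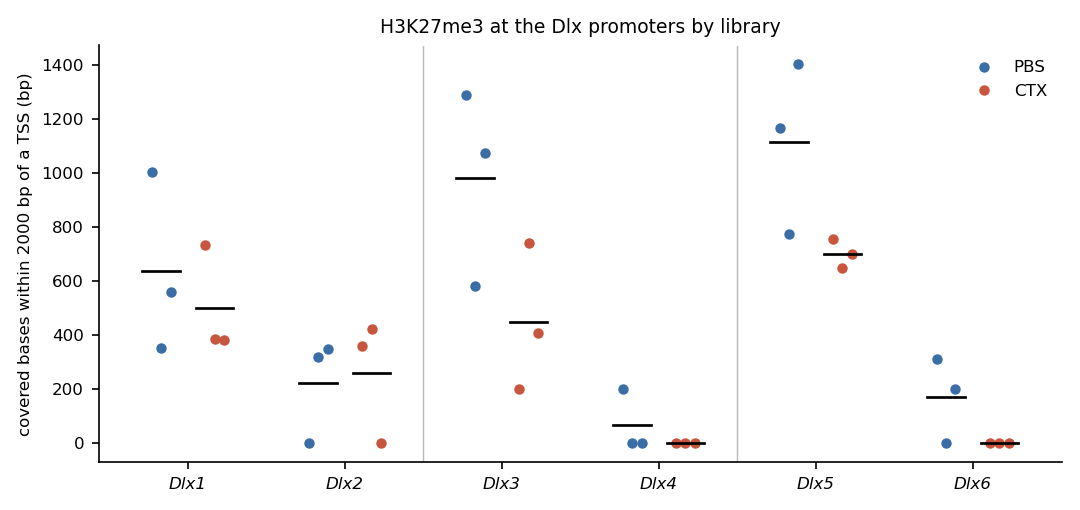
Covered bases within 2000 bp of a TSS (bp) for the 6 Dlx genes, with 1 point per library and the group mean as a line (n = 3 per group). Dlx1, Dlx3 and Dlx5 are above 0 in all 6 libraries, while Dlx4 and Dlx6 are at 0 in most.

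With the gene body and 5 kb on either side as 1 window, Dlx5 was the 1 of 6 Dlx genes whose groups did not overlap. Its window was covered over 1916, 1379 and 2438 bp in PBS and 1377, 1010 and 700 bp in CTX. Over all 4735 gene windows with a peak, 14.1% were higher in every PBS than in every CTX library and 0.253% the opposite, and over the 1105 windows with a peak in all 6 libraries 30.9% were higher in PBS. The Dlx count is thus close to that of marked genes in general. The median difference between CTX and PBS was -533 bp over the 6 Dlx windows, beside -93.3 bp over the 4735 windows and -450 bp over the 1105. Mean covered bases placed Dlx5 at percentile 96.1 of the 4735 windows, Dlx3 at 89.3, Dlx2 at 87.7, Dlx1 at 79, Dlx4 at 75.6 and Dlx6 at 45.3.

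CpG islands, taken as stretches of at least 200 bp with a GC content of at least 50% and an observed to expected CpG ratio of at least 0.6, filled 33.9% of the Dlx1/Dlx2 window, 20.8% of the Dlx3/Dlx4 window and 29.6% of the Dlx5/Dlx6 window. Only part of that was called as peaks, from 2.66% to 23.1% of island bases in a library. The 24 Dlx regions had a median of 28.8 CpG sites per kb, beside 14.3 for all regions of the genome. The regions of all 6 libraries had 76.3 at Dlx1, 65.6 at Dlx3 and 51.0 at Dlx5, beside a median of 38.8 for all regions of 6 libraries. The regions of 5 libraries had 5.70 beside Dlx2, 11.8 inside Dlx4 and 36.8 between Dlx6 and Dlx5. The median of these 6 regions of 5 or 6 libraries was 43.9, and that of the 10 of a single library 24.8. CpG density alone did not sort them, since a region of 1 library at Dlx1 had 125 sites per kb, and the 5-library region inside Dlx4 had 11.8.

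**Figure D5:**
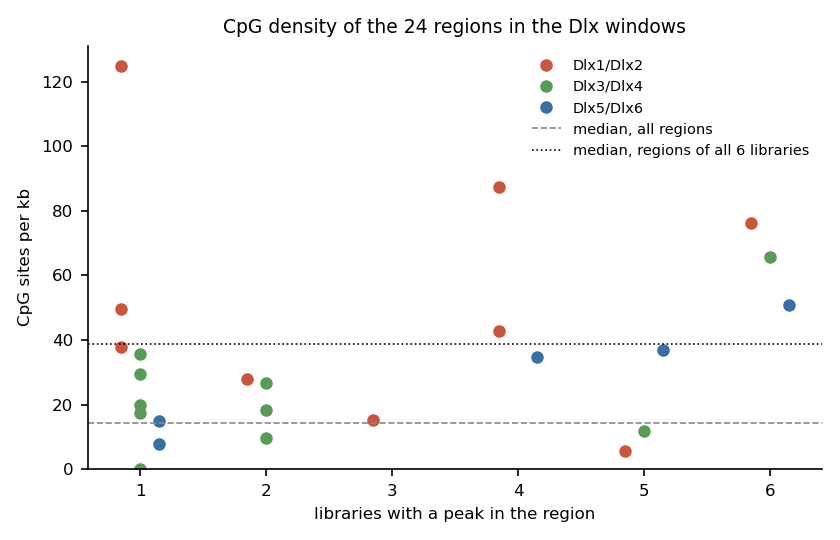
CpG sites per kb of the 24 regions in the Dlx windows against the number of libraries with a peak there, coloured by pair, with the median of all regions (dashed, 14.3) and of regions of all 6 libraries (dotted, 38.8). The 3 regions of all 6 libraries lie above both lines, and regions of 1 library range from 0 to 125.

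Called peaks were nearly absent from the neighbouring coding genes. Of the protein-coding genes within 100 kb, Hat1 and Metap1d beside Dlx1/Dlx2, Samd14 and Pdk2 beside Dlx3/Dlx4 and Sdhaf3 beside Dlx5/Dlx6 had no peak in the body or promoter in any library. Metap1d, which ends inside the Dlx1/Dlx2 window, was therefore free of called peaks next to a marked gene. Itga3, an integrin gene near Dlx3, had 200 bp in its body in CTX replicate 1 and none elsewhere.

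Genes upstream of Dlx in development carried the mark in part. Of 11 regulators, 7, 4 and 6 had a promoter peak in PBS and 5, 5 and 5 in CTX, 4 of them in all 6 libraries and 3 in none. Over all coding genes the share with a promoter peak was 9.07%, 7.10% and 8.70% in PBS and 6.13%, 7.29% and 4.56% in CTX. Among the most covered were Bmp4, Bmp7 and Bmp2, ligands of the BMP pathway that induces Dlx genes. Of the 8 with a peak in the window, 0 were higher in every PBS than in every CTX library (14.1% of all windows with a peak). The median difference between CTX and PBS over these 8 was -454 bp. Bmp4, for example, was covered over 976, 809 and 1609 bp in PBS and 664, 931 and 569 bp in CTX.

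Of 13 known or proposed targets of Dlx proteins, 9, 6 and 9 had a promoter peak in PBS and 5, 7 and 2 in CTX. Among all coding genes, 4.56% to 9.07% had one in a library, lowest in CTX replicate 3 and highest in PBS replicate 1. The most covered were Lhx6 and Lhx8, factors of forebrain neurons, Gad2, which makes GABA, and Sp7, an osteoblast factor. Of the 11 target windows with a peak, 4 were higher in every PBS than in every CTX library, among them that of Gad2. The share was 14.1% over all windows with a peak and 30.9% over those with a peak in all 6 libraries. Hand2 and Runx2, also among the 4, were named after their values were seen. The median difference over the 11 with a peak was -421 bp. Gad2 was covered over 1259, 1731 and 1868 bp in PBS and 412, 1227 and 688 bp in CTX.

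Of 24 other homeobox genes of the NK-like class to which Dlx belongs, 17, 13 and 14 had a promoter peak in PBS and 11, 16 and 9 in CTX. In all 6 libraries 6 of them had one, and 7 had none. Among all coding genes, 4.56% to 9.07% had a promoter peak in a library, again lowest in CTX replicate 3. Of the 21 with a peak in the window, 7 were higher in every PBS than in every CTX library, again beside 14.1% and 30.9%. The median difference over these 21 was -519 bp, close to that of the Dlx windows. Bsx, Barx2, Emx1 and Vax2 were the most covered, and of these the groups of Vax2 did not overlap, with 1818, 1665 and 1785 bp in PBS and 1292, 1540 and 507 bp in CTX. The mean of Dlx5, 1470 bp, was next to those of Bsx (1495 bp) and Barx2 (1438 bp).

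Of 14 genes that mark granulosa cells, 3 had a peak in the window in at least 1 library, beside 21.6% of all coding genes. Counted by library, 0, 0 and 1 of the 14 had a promoter peak in PBS and 0, 0 and 0 in CTX. The share over all coding genes was 4.56% to 9.07% in a library. Of the 14, a promoter peak was seen in 1 library, at Kitl in PBS replicate 3, and Fshr and Esr2 had 200 bp in their windows in 1 library each. Foxl2, Cyp19a1, Amh and the other 8 had no peak. Of 10 genes of other ovarian and blood cells, 4 had a peak in the window in at least 1 library. By library, 2, 2 and 2 of the 10 had a promoter peak in PBS and 1, 3 and 2 in CTX. Those were Pdgfra in 6 libraries, Col1a1 in 5 and Ptprc in 1. Ddx4 had no promoter peak, and Cyp17a1, Cyp11a1, Lhcgr, Pecam1, Zp3 and Gdf9 had no peak in any library. The lists hold no expression values, and most genes of both lists were unmarked, so these data do not tell the cell types apart.

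The covered bases of the Dlx pairs moved with the libraries as a whole. Pearson's r with the total covered bases of a library was 0.916 for Dlx1/Dlx2, 0.925 for Dlx3/Dlx4 and 0.866 for Dlx5/Dlx6 over the 6 libraries, as a description without a test. The genes most like Dlx1/Dlx2 were Chrna3 and Chrnb4, neighbours with the same peaks (r = 0.995), and Kcna1 (r = 0.991). Lrat (r = 0.992), En2 (r = 0.991) and Xkr6 (r = 0.991) were most like Dlx3/Dlx4, and Hes3 (r = 0.995), Srrm3 (r = 0.987) and Ethe1 (r = 0.985) most like Dlx5/Dlx6. The median r over 1102 or 1103 genes with peaks in all 6 libraries was 0.731 to 0.746, so high values were common. With depth in place of covered bases, r was 0.956, 0.913 and 0.691 for the 3 pairs.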

How the data were processed

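H3K27me3 CUT&Tag libraries of 3 PBS and 3 CTX samples were compared. The authors aligned reads to mm10 with BWA, discarded duplicates and reads without a unique position, and used MACS2 (2.1.0) at a q-value of 0.05 on each library. A control library was not given in the sources used here. The deposited lists hold a score, the fold enrichment, which is the ratio of pileup to background, and a −log10 p-value and −log10 q-value for each summit. The authors' differential comparison was not used.

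Covered bases were clipped at the window, and summits were counted inside it. Pileups and backgrounds were solved from the deposited fold enrichment and p-value (99.8% to 99.9% of summits), and all backgrounds checked, 2585 to 8327 per library, were whole multiples of 1 read in 10 kb (100%). Genes came from GENCODE for GRCm38, and sequences from the GRCm38 genome (samtools 1.23.1). Tests used numpy 2.4.6 and scipy 1.17.1, and the recovery was tested on simulated data. Regions overlapped by at least 1 bp. The alternatives were q-values of 0.01 and 1e-05, equal peak numbers, other windows, other scales and leaving out each library.

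The members and lists were chosen with earlier results of these data known. The genes named are all Dlx genes, their neighbours within 100 kb, the 4 most covered genes of each list, and the 3 genes most correlated with each pair. The sequence shown was to be that of the region called in most libraries. Where it overlapped untranslated sequence it was left out or replaced after the data were examined, and the 5-library region inside Dlx4 was added then. Some items that these rules would name are not reported here. The local background, and the comparisons between and within pairs and between shared regions, were also added then. Same-numbered replicates did not deviate together over gene windows (correlations of 0.00055, -0.491 and -0.190), so samples were not paired. With peak lists alone, precision is limited by the depth of each library and by 3 libraries per group.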

Additional observations from a re-analysis of the deposited data

How the results depend on the processing

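No comparison of PBS with CTX could pass 0.05, so whether it passed says nothing of its stability. Covered bases at Dlx1/Dlx2 as a share of all covered bases changed direction, with 0.00267 percentage points more in CTX (exact permutation p = 0.9, n = 3 per group). The mean number of Dlx genes with a promoter peak differed by -1 between CTX and PBS, by -2.33 at a q-value of 1e-05, by -0.333 with promoters of 1000 bp and by 0 with equal peak numbers. The 1 Dlx gene window without overlap (14.1% of all windows) became 0 with 2 kb outside the gene (14.2%) or as a share of covered bases (6.53%) and 2 with 10 kb (14.5%) or equal peak numbers (10.3%). It ranged from 1 to 3 when a library was left out, with 3 without PBS replicate 2 (31.3%) or CTX replicate 2 (25.8%). Dlx1 minus Dlx2 became -29.8 bp with promoters of 5000 bp. Dlx3 minus Dlx4 was 491 bp at a q-value of 1e-05 and 359 bp with promoters of 5000 bp, and Dlx5 minus Dlx6 was 672 bp at a q-value of 1e-05, and these no longer passed the threshold. Within PBS alone Dlx3 minus Dlx4 was 915 bp and within CTX alone 451 bp, and Dlx5 minus Dlx6 was 943 bp and 701 bp, where 3 libraries cannot pass. Leaving out 1 library gave 602 to 779 bp for Dlx3 minus Dlx4 and 746 to 857 bp for Dlx5 minus Dlx6, with an exact p of 0.0625, the smallest that 5 libraries allow. With a replicate block the Dlx3/Dlx4 difference in covered bases was -1510 bp (exact sign permutation p = 0.5, n = 3 pairs), and the smallest p with this pairing is 0.25. No call changed under the block. The difference between Dlx3/Dlx4 and Dlx5/Dlx6, which was not detected, turned direction when a library was left out, with a range of -2.42 to 1.89 times the floor in local background and -2.74 to 1.15 reads in pileup.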
